A study of Mus musculus with 12 samples.

Results

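MiR-9 and miR-124 are microRNAs (miRNAs), short RNAs that lower the output of messenger RNAs matching their seed, that are linked to insulin exocytosis. Both were followed in islets of the pancreas, small groups of endocrine cells, most of them beta cells, which make insulin. The members were the panel rows named miR-9, miR-124 or miR-124a after removal of the species prefix and the arm suffix, with starred minor strands left out. This rule found 2 of the 687 miRNA names on the panel, 1 spot each: an assay of miR-9 under its human name, and an assay of miR-124 under the older mouse name miR-124a.

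The islets came from male C57BL/6 offspring 2 to 3 months old, whose mothers had received low-protein food (LP0.5, 6 samples) or a control diet (Control, 6 samples) during pregnancy. Islets were hand-picked after collagenase digestion and rested overnight in culture before RNA was taken, and what the offspring themselves ate was not among the labels. The comparison asks which islet miRNAs differ in adult offspring after that exposure. TaqMan real-time PCR yielded a linear ratio of low-protein over control, by its heading, for 566 of 750 miRNA spots in the authors' deposited table. Columns of per-sample values in a second deposited table match no sample label and were not used, so no ratio below has a replicate error, a p-value or a test, and amplification depth was not analysed here.

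A ratio above 1 means more of the miRNA in LP0.5 islets if the column heading is taken at its word. MiR-199a-3p, which the study is known for reporting as raised in low-protein islets, had a value of 0.422 in the authors' deposited table, opposite to that heading, so the direction is not settled and values are given as above or below 1. If the ratio ran the other way, miR-9 would stand 1.79-fold above 1 and miR-124a at 0.786. In whole islets, fewer cells of a type and less of an RNA per cell cannot be told apart.

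Both miRNAs are abundant in neurons and are also present in endocrine cells of the pancreas, which share much of their secretory machinery with neurons. In rat insulinoma cells miR-9 represses the transcription factor Onecut2, which itself holds down granuphilin, a brake on the fusion of insulin granules. In a mouse beta cell line miR-124a acts on Foxa2, a transcription factor of beta cell development and glucose sensing, and overexpression changes levels of Rab27a and other granule proteins. An excess of either one has been linked to poorer glucose-stimulated insulin secretion.

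The mature strands of miR-9 are shown because the panel carried an assay for each arm, the 5p arm being miR-9 and the 3p arm the starred strand. Sequences are those of RefSeq for mouse, build GRCm38.p6, written 5′ to 3′, with the seed (bases 2 to 8) in capitals.
miR-9-5p: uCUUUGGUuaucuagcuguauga
miR-9-3p: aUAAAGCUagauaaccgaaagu
The 5p seed was carried by 1 mature name in that table, miR-9-5p itself, and the 3p seed likewise by miR-9-3p alone. The strands have 23 and 22 bases and pair with each other in the hairpin over a run of 12 unbroken complementary bases, bases 6 to 17 of the 5p arm, in capitals here.
miR-9-5p, run: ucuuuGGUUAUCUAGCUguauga

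The same mature miR-9 strands are made from 3 genes, so the single miR-9 assay reads their sum and cannot say which gene a difference came from. The hairpins are shown in build GRCm38.p6 with both mature arms in capitals. Mir9-1 lies at chr3:88215598-88215686 on the + strand, inside the annotated span of the lncRNA gene Gm3764. Mir9-2 lies at chr13:83738814-83738885 on the + strand, inside that of the lncRNA gene C130071C03Rik. Mir9-3 lies at chr7:79505264-79505353 on the + strand, inside that of its host lncRNA gene Mir9-3hg. Exon and intron bounds of these hosts were not used here.
Mir9-1: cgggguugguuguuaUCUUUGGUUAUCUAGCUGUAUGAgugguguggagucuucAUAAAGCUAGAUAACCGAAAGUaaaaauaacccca
Mir9-2: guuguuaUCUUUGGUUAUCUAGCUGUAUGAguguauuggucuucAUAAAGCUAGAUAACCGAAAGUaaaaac
Mir9-3: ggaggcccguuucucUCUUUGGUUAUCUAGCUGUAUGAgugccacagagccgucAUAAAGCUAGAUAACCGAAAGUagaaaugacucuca
The capitals are the same in all 3 hairpins, and the lower-case loops differ. The stem ends of Mir9-3 differ in sequence from the others, while those of Mir9-1 and Mir9-2 differ mostly in listed length. Between the arms the loop has 16 bases in Mir9-1, 14 in Mir9-2 and 16 in Mir9-3. In a global alignment 70 bases of the 72-base Mir9-2 hairpin were identical to Mir9-1, and 64 were identical to Mir9-3, while Mir9-1 and Mir9-3 shared 71 identical bases over the 89 of Mir9-1.

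Each miR-9 gene also overlaps an annotated gene for miR-9b on the opposite strand. The RefSeq strand miR-9b-3p is the exact reverse complement of part of miR-9-5p, again with bases 2 to 8 in capitals.
miR-9b-3p: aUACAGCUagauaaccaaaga
Its seed differs from those of both miR-9 arms, and the panel has no assay under that name.

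MiR-9 was listed below 1 and miR-124a above 1. In the authors' deposited table miR-9 was listed at 0.558, a log2 ratio of -0.84, which is 1.79-fold below 1. In the same deposited table of the authors miR-124a was listed at 1.27, a log2 ratio of 0.35. Only miR-9 lay at least 1.5-fold from 1, the limit used here for a ratio far from 1. Among all 566 miRNA spots with a ratio, 16.8% lay at least 1.5-fold below 1 and 18.6% at least 1.5-fold above it, so a ratio as far down as that limit is common on this panel. In the A set, the 8 blocks of spots that hold both members, these shares were 15.8% and 13.2% of 304 spots. All of these shares include extreme ratios. Of the 566 spots 25 lay beyond 4 on the log2 scale in either direction, 7 of them in the A set. How such values arose was not tested.

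Within the A set 34 of the 304 miRNA spots were listed lower than miR-9, and 56 were listed higher than miR-124a. The A set had a median ratio of 0.976, and its 25th and 75th percentiles were 0.796 and 1.19. Both members thus lay outside these percentiles, on opposite sides, and neither was at the end of its set. Over the whole panel 75 of 566 spots were listed lower than miR-9, and 74.9% were lower than miR-124a. Both assays sit in the same block, where 42 miRNA spots had a ratio and the median was 0.919. In that block 6 spots were lower than miR-9 and 6 were higher than miR-124a.

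**Figure D1:**
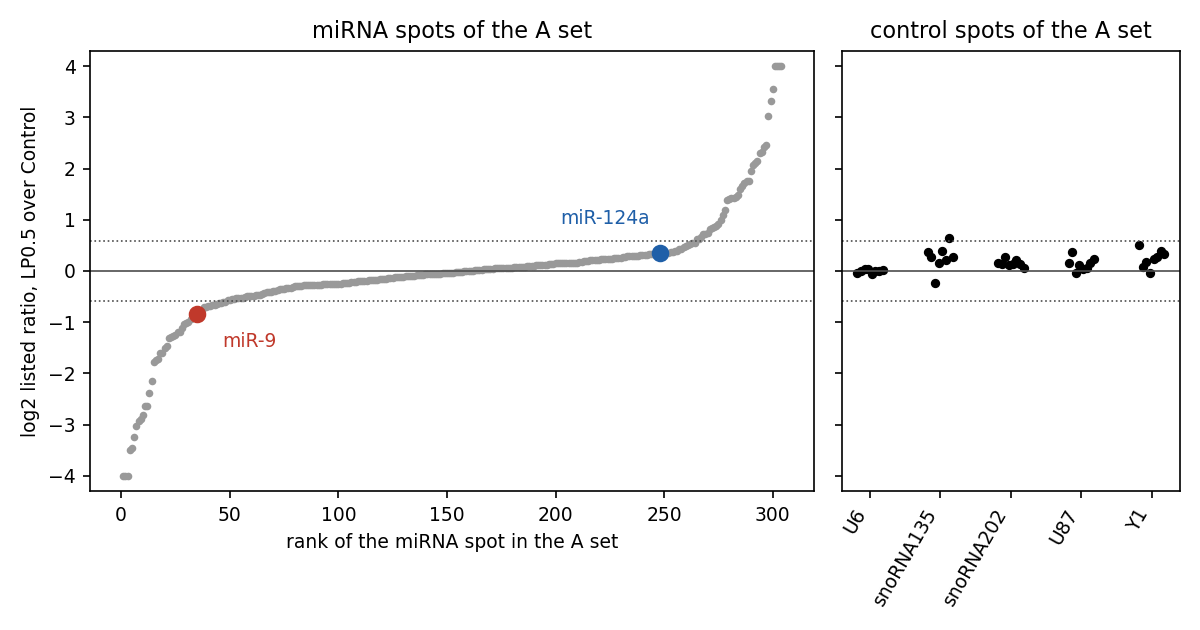
Left, log2 listed ratio (LP0.5 over Control) of the 304 miRNA spots of the A set by rank, with the members in colour; 7 spots beyond 4 on the log2 scale are drawn at the edge. Right, the 8 spots of each small RNA control in the same set; dotted lines mark 1.5-fold. MiR-9 lies below the lower dotted line and below all 40 control spots, while miR-124a lies between the dotted lines, within the range of the controls.

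Repeated control spots, and pairs of assays that share a name, give a rough scale of error for these ratios. Neither includes the variation between samples of a group. The 40 spots of U6, snoRNA135, snoRNA202, U87 and Y1 in the A set had a pooled SD of 0.15 on the log2 scale around their own means, or 1.11-fold. No control spot lay as far from its own median as miR-9 lay from 1, and 2 of the 40 lay as far as miR-124a did. The farthest was 1.42-fold away. The plant miRNA ath-miR159a, a negative control, is not among the 40. Its 2 ratios in the A set, 0.139 and 1.96, both lay farther from 1 than that of miR-9. Whether the spread of the 40 spots holds at the members' own amplification levels was not tested. The B set, which holds neither member, had U87 spots from 0.133 to 1.13 with a median of 1.04. Different assays of 1 miRNA name were less alike than the A set control spots. Names were matched without species prefix, so a pair can hold assays of different species or of both sets. Of 38 names with a pair of assays, 11 had ratios at least 1.79-fold apart, the distance of miR-9 from 1, and 21 had ratios at least 1.27-fold apart, the distance of miR-124a. The distance of miR-9 from 1 was thus larger than that of any of the 40 A set control spots from its own median. It was not larger than the differences between many paired assays. Neither scale says how it compares with the spread between samples. The distance of miR-124a from 1 was within reach of both. Each member has a single assay, so no second reading of it was at hand.

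The members' positions relative to each other do not rest on the reference. Both assays belong to the A set and the same block, and a change of the reference there moves both log2 ratios by the same amount. The ratio of miR-124a was 2.28 times that of miR-9, a difference of 1.19 on the log2 scale. This difference has no replicate error either.

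The position of each member relative to 1 does rest on the reference. In the A set the log2 ratios of the 8 U6 spots averaged 0, which makes U6, a small nuclear RNA, the reference of both members' ratios. The other small RNA controls of the A set were listed mostly above 1, with median ratios of 1.21 for snoRNA135, 1.10 for snoRNA202, 1.09 for U87 and 1.19 for Y1. For the control spots of the members' own block the authors' deposited table gave 0.977 for U6, 1.30 for snoRNA135, 1.12 for snoRNA202, 1.11 for U87 and 1.43 for Y1. Relative to the mean of the snoRNA135, snoRNA202, U87 and Y1 levels, miR-9 was at 0.486 and miR-124a at 1.11.

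Over 9 other references the ratio of miR-9 ran from 0.460 to 0.606, at least 1.5-fold below 1 with each of the 9. That of miR-124a ran from 1.05 to 1.38, above 1 with each and never 1.5-fold above. All 9 reuse the same listed value of each member and several share the same controls, so they are not separate tests. The value of miR-124a was lowest, 1.05, relative to snoRNA135 and highest, 1.38, relative to the median of the miRNA spots of its block. MiR-375, the main islet miRNA and a regulator of insulin secretion, ran on both sides of 1 under the same references, from 0.967 relative to snoRNA135 to 1.22 relative to the U6 spot of its block. For miR-7a, which restrains beta cell proliferation and secretion, every reference gave a value below 1, up to 0.998 relative to the median of the miRNA spots of its block.

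**Figure D2:**
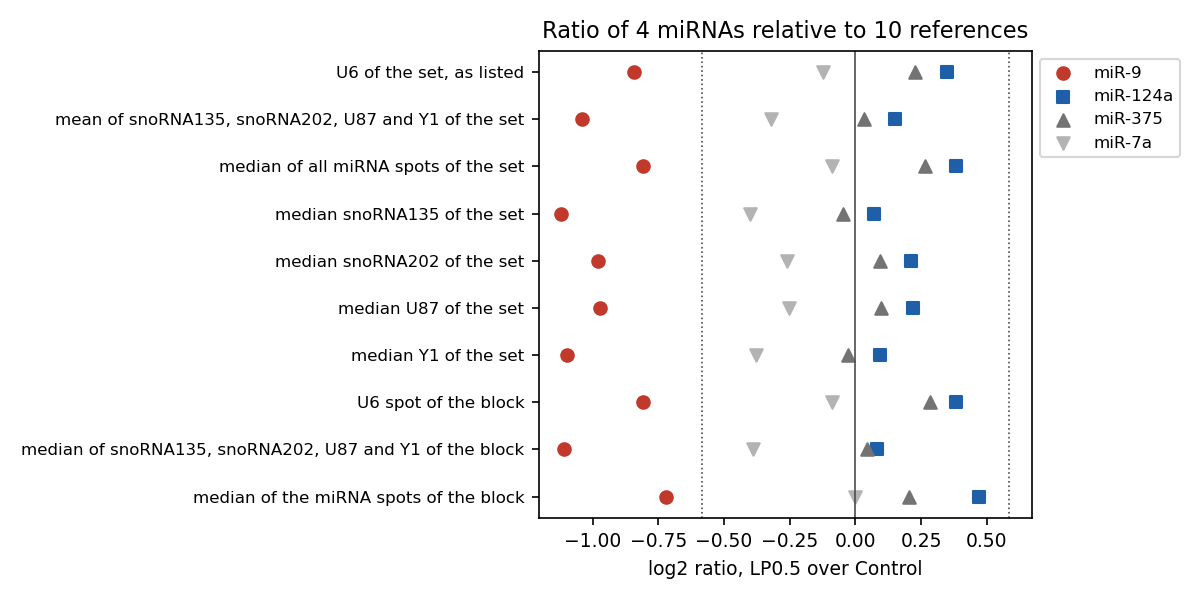
Log2 ratio (LP0.5 over Control) of miR-9, miR-124a, miR-375 and miR-7a, 1 row for each of 10 references; dotted lines mark 1.5-fold. MiR-9 stays left of the lower dotted line in each row, from 0.460 to 0.606 with the 9 references other than U6 of the set. MiR-124a stays between 1 and 1.5-fold above it.

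The starred strand of miR-9 was listed nearer to 1 than miR-9 itself. In the authors' deposited table miR-9*, the 3p arm of the same 3 hairpins, was listed at 0.873, a log2 ratio of -0.20. Both arms of miR-9 were thus below 1, and the 5p arm alone was at least 1.5-fold from it. The assay of miR-9* lies in the B set, where 85 of 262 miRNA spots were listed lower, so it is a separate measurement against a separate set of U6 spots. In that set the plant miRNA ath-miR159a, a negative control that mice lack, was itself listed at 8 spots from 2.59 to 3.37. In the A set the plant miRNA had a ratio at 2 of its 8 spots, 0.139 and 1.96, and none in the members' block. No ratio was listed for the starred strand of miR-124, so its arms could not be compared.

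Among the listed miRNAs known to act on insulin secretion, miR-9 had the lowest ratio and miR-124 the highest. These ends depend on which names the list holds. The islet markers miR-7b, at 0.523, and miR-183, at 1.45, are not on it and lay farther out on either side. If the ratio ran the other way, miR-9 and miR-124 would swap ends, here and on the neural list. The list held 33 names, of which 32 had a ratio. Of these 32, 11 were above 1 and 21 below, with a median ratio of 0.915. Over all 528 miRNA names with a ratio, 266 were above 1 and 262 below, with a median of 1.01. Ratios of all names ran from 0.000109 to 36341800, and those of the list from 0.558 to 1.27. Shares given for all names thus include extreme values that the list does not hold. On the list 3 names lay at least 1.5-fold below 1 and none as far above, that is 9.38% below, where 17.6% of all names lay as far below and 18.8% as far above. With the ratio turned, the same 3 names would lie as far above 1. Relative to the mean of the 4 other controls, 5 names were above 1 and 27 below (84.4%), where 62.7% of all names were below 1. At least 1.5-fold below were then 6 of the 32 (18.8%), against 23.7% of all names. MiR-9 and miR-124 were again the lowest and the highest of the 32.

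The list members nearest to miR-9 were miR-338-3p and miR-211. In the authors' deposited table miR-338-3p, whose fall accompanies beta cell growth in pregnancy and obesity, was listed at 0.613. The authors' deposited table gave 0.632 for miR-211, a close relative of miR-204. Nearest to miR-124 were miR-204, which lowers insulin production through the transcription factor MafA, and miR-375. The authors' deposited table listed miR-204 at 1.26 and miR-375 at 1.17, so miR-124 and miR-204 differed by far less than the spread of the control spots.

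A few other names on the list, picked here after their values were seen, have been tied to the granule release machinery. MiR-96, which like miR-9 was linked to granuphilin in insulin-secreting cell lines, had a ratio of 0.946 in the authors' deposited table. For the miR-29 family, which limits syntaxin 1a, the authors' deposited table gave 1.04 for miR-29a, 0.787 for miR-29b and 0.905 for miR-29c. The authors' deposited table listed miR-34a, which lowers VAMP2, at 0.679. None of these reached 1.5-fold, a limit that 17.6% of all names reached below 1 and 18.8% above it. MiR-34a lay well below the middle of the list.

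**Figure D3:**
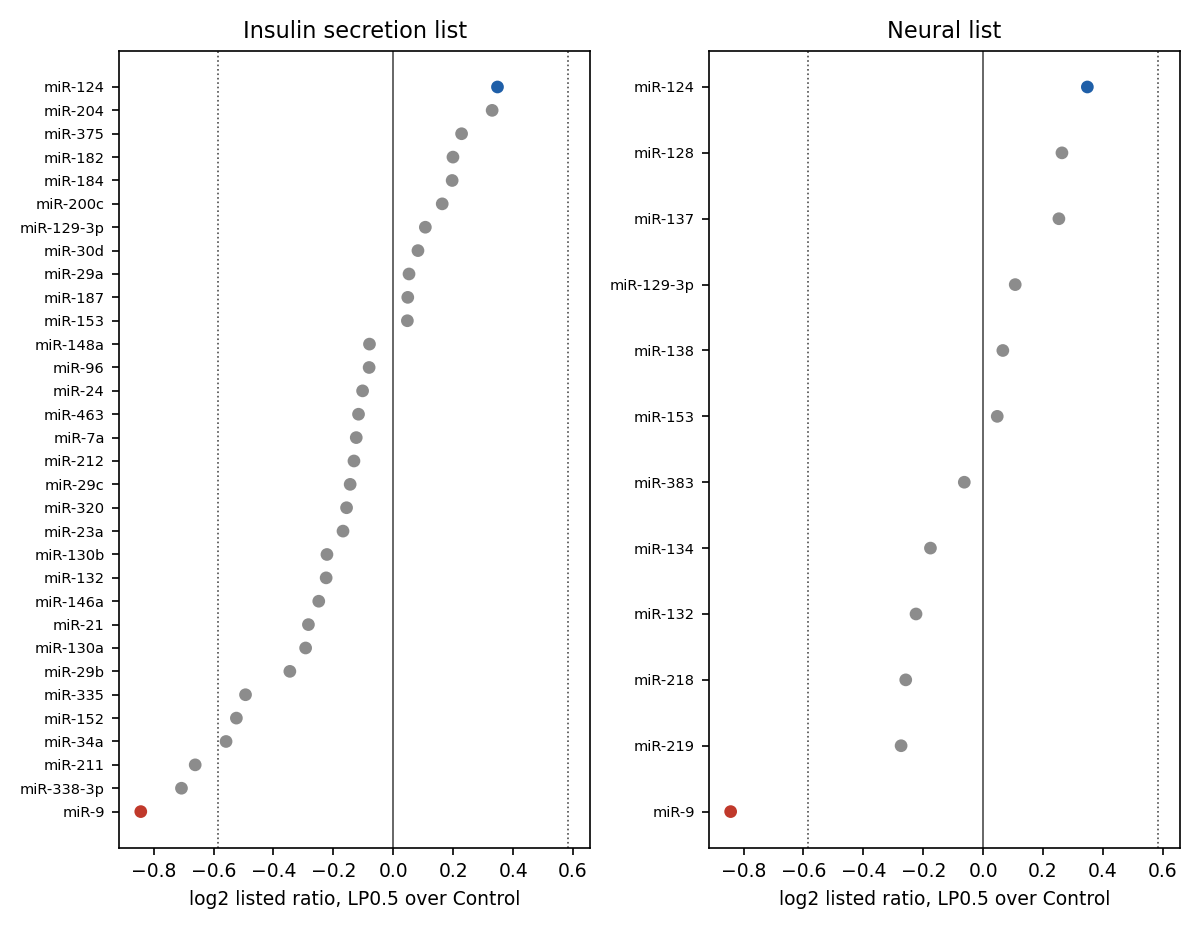
Log2 listed ratio (LP0.5 over Control) of the 32 insulin secretion miRNAs (left) and the 12 neural miRNAs (right) with a ratio, 1 point per name, ordered by ratio; dotted lines mark 1.5-fold. MiR-9 (0.558) is the lowest point and miR-124 (1.27) the highest in both panels, and with the ratio turned they would swap places.

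MiR-9 and miR-124 also stood at opposite ends of the neural list, a choice of miRNAs known from brain. Of 13 names on that list 12 had a ratio, with 6 above 1, 6 below and a median of 0.995. Over all 528 names with a ratio, 266 were above 1 and 262 below. The 10 names other than miR-9 and miR-124 ran from 0.827 to 1.20, none of them 1.5-fold from 1. Of all names 17.6% lay as far below 1 and 18.8% as far above. Nearest to miR-9 the authors' deposited table had miR-219 at 0.827 and miR-218 at 0.836, and nearest to miR-124 it had miR-128 at 1.20 and miR-137 at 1.19. Relative to the mean of the 4 other controls, 3 of the 12 were above 1 and 9 below, where 62.7% of all names were below, with miR-9 and miR-124 still at the ends.

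The cell make-up of the islets can be read here only through ratios. Each of the 11 islet markers had a ratio, 5 above 1 and 6 below, from 0.523 for miR-7b to 1.45 for miR-183 in the authors' deposited table. Of the 6 neural markers 5 had a ratio, 3 above 1 and 2 below, between 0.827 and 1.20. The 3 acinar markers ran from 0.726 to 1.32 and the 2 endothelial markers from 0.647 to 0.975. The 5 blood cell markers ran from 0.305 to 1.78, with 3 above 1 and 2 below. Their part in the values of miR-9 and miR-124 was not tested.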

How the data were processed

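Total RNA of 6 LP0.5 and 6 Control islet samples was measured with FAM-labelled TaqMan probes, per the labels' protocols. The authors deposited linear ratios for 656 of 846 spots, taken as low-protein over control per the file headers. Limma is named in the submitters' processing notes, with no role given; no source used here states the reference, the detection limit or the averaging. A second deposited table names the spots. Its 12 per-sample columns match no sample label and were used in no step, so the planned limma test was not run.

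Ratios were converted to log2, and assays of 1 name were averaged on that scale for lists only. Spots were assigned to the A or B set, 8 blocks each, by the set letter of their assay code. Panel names were matched without species prefix, and older or arm-less names were taken for miR-7a, miR-124, miR-128 and the arms of miR-126. Named miRNAs are the members, their starred strands, insulin secretion and neural list names that lay 1.5-fold or more from 1 or were the 2 closest to a member, controls, miR-375 and miR-7a. The members of the exocytosis paragraph, the ends of the marker ranges and miR-199a-3p were named after their values were seen. Members, lists and rules were chosen with earlier results of these data known. Sequences are RefSeq's (GRCm38.p6). Counts past the fold limit, the pooled SD and the percent-lower ranks were tested on made-up data with known answers. Python 3.11.15, numpy 2.4.6, pandas 2.3.3, matplotlib 3.10.9 and Biopython 1.88 were used.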

Additional observations from a re-analysis of the deposited data

How the results depend on the processing

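The single-control and block references were chosen after seeing the data. For log2 ratios a move was counted where it was at least the pooled SD of control spots, 0.15 on the log2 scale. For counts of spots a move was a change of more than 1.5-fold. MiR-9, at -0.84, moved to -1.04 with the mean of snoRNA135, snoRNA202, U87 and Y1, to -1.12 with snoRNA135, to -1.10 with Y1 and to -1.11 with the 4 other controls of the block. MiR-124a, at 0.35, moved to 0.15, 0.072, 0.092 and 0.080 with the same references. With the starred strand averaged in, miR-9 was at -0.52, which no longer reaches 1.5-fold. Among miRNA spots 105 above and 95 below 1 passed 1.5-fold. In the A set alone, smaller by construction, 40 above and 48 below did. The split was 91 above and 130 below with the other controls, or 41.2% above 1 against 52.5%. That reference moved the median log2 ratio to -0.31 for the insulin secretion list, from -0.13, and to -0.20 for the neural list, from -0.01. Why the values moved with the reference was not tested. Leaving out miR-9 and miR-124, which lie at opposite ends of both lists, cannot move the list medians and tests nothing. Taking each assay alone changes nothing, since each member has 1 assay. No paired analysis was possible because the per-sample columns could not be matched to sample labels, and for the same reason no sample could be left out.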
